A study of Mus musculus with 29 samples.

Results

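The response of the prefrontal cortex to MPTP was measured in TgS mice, a line on the FVB/N background that expresses the human AChE-S variant of acetylcholinesterase. It was read from 4 of the 29 arrays of the series: 2 of MPTP-exposed mice, replicates 1 and 2, and 2 of naive mice, replicates 3 and 4. The members were chosen by their titles, and naive replicates 1 and 2 of this line were left out because they stand apart from its other arrays. Exposed mice received MPTP-HCl in 4 doses of 20 mg/kg at intervals of 2 h, 80 mg/kg in all, and the tissue was taken 4 days after injection. Both groups carry the human transgene, so the comparison shows what differs between exposed and unexposed TgS mice and not what the transgene does. 3 further responses served as comparators: FVB/N mice without a transgene and TgR mice, which express human AChE-R on the same background, both in the prefrontal cortex, and TgS mice in the caudate-putamen. Each of these had 2 MPTP arrays and 2 naive arrays. The labels used here name neither the promoter that drives the transgene, nor the age of the mice, nor the number of mice behind each array. The labels mention saline injection of 6 mice per strain, but the arrays of the unexposed arm are titled control and described as naive, and whether these are the same mice is not stated. The p-values therefore measure the spread between arrays, which may be technical.

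MPTP is a toxin that crosses into the brain, is oxidised in glia to MPP+, and enters dopamine neurons through the dopamine transporter, where it inhibits complex I of the mitochondrial respiratory chain. The prefrontal cortex receives a sparser dopamine input than the caudate-putamen, and its own neurons are mainly glutamatergic and GABAergic. Acetylcholinesterase ends cholinergic transmission by hydrolysing acetylcholine, and AChE-S is the synaptic splice variant, which is anchored in membranes through its C-terminal tail.

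The measured tissue fitted its label in its neuronal markers. Over 18 measured marker genes of cortical glutamatergic neurons, the mean log2 signal was 9.17 and 9.29 in the MPTP arrays, against 9.23 and 9.24 in the naive arrays, and lay between 8.05 and 8.52 in the TgS caudate-putamen. Over 15 striatal markers it was 8.42 in both MPTP arrays, against 8.32 in both naive arrays, and lay between 10.92 and 11.16 in the TgS caudate-putamen. Both MPTP arrays and both naive arrays used here had low Xist (6.93 to 7.12 against 7.21 to 7.24) and high Eif2s3y (8.71 to 8.72 against 8.73 to 8.82). In the left-out naive replicates 1 and 2 the X-linked Xist, which silences an X chromosome, had 10.61 and 9.97, and the Y-linked Eif2s3y had 3.83 and 3.44. This is the pattern of female tissue, whereas the arrays used here have the male pattern. The 3′ probe set of the spiked-in control dap had 3.85 and 3.56 in these left-out arrays, against 8.34 and 8.49 in the MPTP arrays. The MPTP arrays also differed from naive replicates 3 and 4 in spiked-in control transcripts: the bioB middle probe set had 8.13 and 8.0 in the MPTP arrays, against 6.94 and 7.08 in the naive arrays. The source labels spell the region in a different way for these naive replicates in all 3 strains. In the prefrontal cortex, treatment and this set of arrays cannot be told apart. Whatever the set adds equally in the strains drops out of the differences between their responses, which are given after the response itself.

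The response was broad. Of 22626 probe sets, 8401 (37.1%) passed an adjusted p under 0.05 (limma, Benjamini-Hochberg), and these are termed called here. Of them 4837 (21.4% of the tested) were higher and 3564 (15.8%) lower in MPTP-exposed than in naive cortex, so 57.6% of the calls were rises. With the left-out naive replicates 1 and 2 in place of 3 and 4, 4075 of the 8401 kept their direction and call, and of 120 genes named here 27 turned, among them Slc32a1 (-0.16), Flt1, Tie1, Nptx2, Fosb, Nfil3, Atf3, Pts and the bulb genes. That swap sets MPTP arrays with the male pattern of the sex-linked genes against naive arrays with the female pattern. Most differences were small: 292 of the called probe sets differed by more than 1 log2 unit, 225 upward and 67 downward. The balance of directions depends on the scaling, because the array median was 7.77 in the MPTP arrays, against 7.66 in the naive arrays. With all arrays set to equal medians, which moves every difference by -0.11, the calls were 3128 higher and 6476 lower (32.6% rises), and after quantile normalisation 4023 higher and 4537 lower (47% rises). Direction is therefore stated below for single genes and for lists whose members moved well past that shift. On the level of genes, each represented by its brightest probe set, 2990 of 12393 rose (24.1%) and 1815 fell (14.6%), with a median difference of 0.03. The same test called 18.9% of the probe sets in the FVB/N prefrontal cortex, 22.5% in the TgR prefrontal cortex and 3.78% in the TgS caudate-putamen.

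Genes of the acute-phase and cytokine response held the largest rise. Lcn2, which encodes lipocalin 2, a siderophore-binding protein secreted by reactive glia and endothelium, had log2 signals of 9.74 and 10 in MPTP-exposed cortex, against 5.08 and 4.89 in naive cortex. Both MPTP arrays lay far above both naive arrays, a 29.5-fold difference (4.89 ± 0.33 log2 units, SE, adjusted p = 1.76e-07). S100a8, a partner in the calprotectin dimer of neutrophils and activated myeloid cells, had 8.17 and 8.68, against 5.25 and 5.12 in naive cortex, 9.45-fold higher (adjusted p = 0.00021). Its binding partner S100a9 was 4.76-fold higher (adjusted p = 0.000828). Of 14 measured blood cell genes, a list that includes both, only these 2 rose and 1 fell, and the median difference was 0.13. Over all genes, 24.1% rose and 14.6% fell.

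Of the 31 acute-phase and cytokine genes, 16 rose and 3 fell, with a median of 0.53, beside 24.1% rises and a median of 0.03 over all genes. Osmr, the receptor subunit for oncostatin M, had 7.93 and 7.97 in MPTP-exposed cortex, against 5.56 and 5.66 in naive cortex, and its groups were 5.06-fold apart (adjusted p = 1.05e-07). Lrg1, a secreted leucine-rich glycoprotein that responds to STAT3, was 5.24-fold higher (adjusted p = 1.71e-07). Cebpd, a transcription factor of the acute-phase response, rose by 1.75 log2 units, and Icam1, an adhesion molecule for leukocytes, by 1.65. The other, dimmer Cebpd probe set gave 0.19, not called. Lcn2 also belongs to the reactive astrocyte and glucocorticoid lists used below. Saa2, an acute-phase serum amyloid in liver, went the other way with 5.30 and 5.06 in MPTP-exposed cortex, against 6.54 and 6.05 in naive cortex, near the low end of the arrays' signal (the 25th percentile of the arrays lay between 5.96 and 6.01). Pglyrp1, a peptidoglycan-binding protein of granulocytes, was higher by 1.89 log2 units (adjusted p = 5.31e-07).

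The promoter windows of Lcn2 and Gfap are shown because both genes rose and are textbook targets of C/EBP or STAT factors, and that of Dbp because it fell and is a clock output described further on. Sequences are RefSeq's, build GRCm38.p6, 5′ to 3′ on the gene's strand, in a window of 300 bases across the annotated start. Capitals mark matches on either strand to the motifs TTCNNNGAA (STAT), TTGCNNAA (C/EBP), CACGTG (E-box) and TTATGNAA (D-box).
Lcn2 promoter, chr2:32387690-32387989, minus strand: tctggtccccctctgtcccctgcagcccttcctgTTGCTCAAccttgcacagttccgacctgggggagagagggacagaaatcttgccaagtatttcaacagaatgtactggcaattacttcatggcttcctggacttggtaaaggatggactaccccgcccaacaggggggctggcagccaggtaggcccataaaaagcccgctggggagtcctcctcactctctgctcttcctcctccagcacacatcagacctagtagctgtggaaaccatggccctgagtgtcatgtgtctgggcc
Gfap promoter, chr11:102897151-102897450, minus strand: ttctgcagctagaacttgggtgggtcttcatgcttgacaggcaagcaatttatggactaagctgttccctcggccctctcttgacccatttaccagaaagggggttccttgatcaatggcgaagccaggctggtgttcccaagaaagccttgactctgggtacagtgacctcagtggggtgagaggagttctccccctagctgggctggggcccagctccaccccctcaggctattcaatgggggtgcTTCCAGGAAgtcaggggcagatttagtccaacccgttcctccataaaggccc
Dbp promoter, chr7:45704997-45705296, plus strand: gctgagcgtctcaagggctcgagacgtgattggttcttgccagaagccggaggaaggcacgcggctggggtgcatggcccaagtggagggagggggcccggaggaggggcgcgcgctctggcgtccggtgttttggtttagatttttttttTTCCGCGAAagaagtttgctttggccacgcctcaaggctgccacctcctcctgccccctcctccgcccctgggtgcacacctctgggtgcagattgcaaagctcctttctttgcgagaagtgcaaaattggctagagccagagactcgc
The Lcn2 window held 1 C/EBP match, and the Gfap and Dbp windows held 1 STAT match each. These 3 were picked for print after 17 windows of named genes had been searched, of which 6 held a match and 11 held none, those of Osmr and Lrg1 among them. The other matches were an E-box in the windows of Klf4 and Fkbp5 and a C/EBP match in that of Nr1d1. Over 32851 promoter windows of the same length, 10.8% held the C/EBP letters, 8.3% the STAT letters, 7.15% the E-box and 3.38% the D-box. These matches describe letters in a window, not binding.

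**Figure D1:**
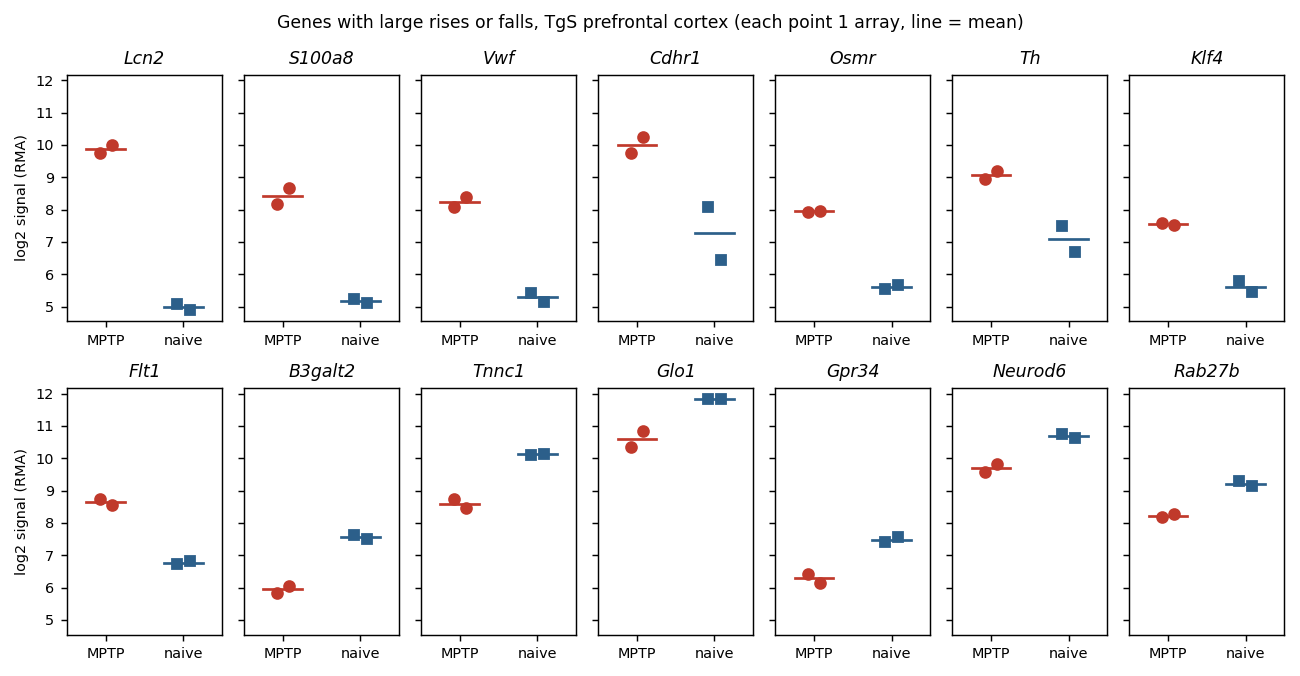
Log2 signal (y axis, RMA) of 14 genes in TgS prefrontal cortex, with 2 MPTP arrays (circles, left) and 2 naive arrays (squares, right) in each panel and a line at each mean. Lcn2 lies at 9.74 and 10 in the MPTP arrays and at 5.08 and 4.89 in the naive arrays, whereas the naive arrays of Cdhr1 lie apart at 8.08 and 6.45.

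Genes induced in reactive astrocytes rose in number. Of 21 reactive astrocyte genes, 12 rose and none fell (limma, with no fall at an unadjusted p under 0.05 either), with a median of 0.53. The corresponding medians were 0.18 in FVB/N cortex, 0.14 in TgR cortex and 0.03 in TgS caudate-putamen. By the test of the difference, the TgS response was higher than that of FVB/N cortex for 0 of the 21 (5 at an unadjusted p under 0.05). It was higher than that of TgR cortex for 2 (10 unadjusted) and than the mean of both for 1 (9 unadjusted), and lower for none. Of all 22626 probe sets, 3565, 2661 and 3474 had an unadjusted p under 0.05 against FVB/N, TgR and both, in either direction. Gfap, the intermediate filament of astrocytes, had 9.72 and 9.69 in MPTP-exposed cortex, against 8.27 and 8.14 in naive cortex, 2.83-fold higher (adjusted p = 1.79e-05). Its other probe set rose by 1.73 log2 units. Naive Gfap was 9.62 and 9.12 in FVB/N and 9.35 and 9.48 in TgR cortex, above both TgS naive arrays. After MPTP it was 10.39 and 9.94 in FVB/N and 10.02 and 10.42 in TgR cortex, above both TgS MPTP arrays. Vim, an intermediate filament that reactive astrocytes share with vessels, rose by 1.10 log2 units (adjusted p = 6.19e-05), to 9.45 and 9.66 in the MPTP arrays. The left-out TgS naive replicates 1 and 2 had Gfap at 9.68 and 9.55 and Vim at 9.57 and 9.54, near the MPTP arrays. Of 19 general astrocyte markers 7 rose and none fell (1 fall at an unadjusted p under 0.05), among them Ntsr2, a neurotensin receptor, by 0.61, Gjb6, the gap junction protein connexin 30, by 0.55 and Fgfr3, a growth factor receptor, by 0.39 log2 units. With equal medians the 19 markers gave 5 rises and 2 falls. As deposited, 24.1% of all genes rose and 14.6% fell. In bulk tissue, more cells of a type and more RNA per cell cannot be told apart, for this and every later list.

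The microglial list held both directions. Of 21 measured genes 8 rose and 4 fell, beside 24.1% rises and 14.6% falls over all genes. Under equal medians the list had 7 rises and 6 falls. C1qc, a subunit of complement C1q, had 9.69 and 9.66 in MPTP-exposed cortex, against 8.65 and 8.77 in naive cortex (adjusted p = 0.000229). Ptprc, the pan-leukocyte surface phosphatase CD45, was higher by 1.19 log2 units. By contrast, P2ry12, the purinergic receptor of resting microglia, had 9.34 and 9.16, against 9.98 and 10.12 in naive cortex, and fell by 0.80 log2 units (adjusted p = 0.000265). With the left-out naive arrays in place of replicates 3 and 4 the P2ry12 difference was 0.45 and the list had 9 rises and 2 falls. Gpr34, another receptor of resting microglia, had 6.43 and 6.15, against 7.40 and 7.56 in naive cortex. In the TgS caudate-putamen the same list had 12 rises and no fall (none at an unadjusted p under 0.05 either). Its median was 0.21 in the cortex of the line, against 0.44 in the caudate-putamen, where 2.26% of all genes rose and 1.99% fell. For 7 of its genes the cortical response was lower than the striatal response by the test of that difference, and for none higher (0 at an unadjusted p under 0.05), beside 6.67% lower and 11.3% higher over all genes.

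Vessel genes formed a further large group of rises. Of 25 endothelial and mural cell genes 15 rose and none fell (1 fall at an unadjusted p under 0.05), with a median of 0.61. Vwf, the endothelial clotting factor von Willebrand factor, had 8.09 and 8.38 in MPTP-exposed cortex, against 5.43 and 5.14 in naive cortex, 7.73-fold higher (adjusted p = 8.32e-09). Flt1, the VEGF receptor of endothelium, had 8.74 and 8.55, against 6.72 and 6.83 in naive cortex. All of its 3 probe sets were higher, but the others by 0.41 and 0.12 log2 units only, and the last was not called. Pecam1, an endothelial junction protein, rose by 1.23, Tie1, an endothelial receptor kinase, by 1.19 and Cldn5, the tight-junction protein of the blood-brain barrier, by 1.35 log2 units. The response of the list in the other strains was unequal: 16 genes rose in TgR cortex (median 0.55), against 3 rises and 3 falls in FVB/N cortex (median -0.03). Over all genes, 24.1% rose and 14.6% fell in TgS cortex, 15.1% and 7.18% in TgR cortex, and 10.3% and 6.57% in FVB/N cortex.

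The vessel signal was also unequal among the naive arrays. The mean log2 signal over the 25 vessel genes was 8.29 and 8.25 in TgS MPTP arrays, against 7.59 and 7.57 in TgS naive arrays. In TgR cortex it was 8.36 and 8.44 after MPTP, against 7.83 and 7.86 in naive mice. In FVB/N cortex it was 8.18 and 8.18 after MPTP, against 8.26 and 8.03 in naive mice. The TgS naive arrays were thus the lowest of the 12 prefrontal arrays, and the 6 MPTP arrays lay between 8.18 and 8.44.

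Genes of the meninges and their matrix rose with the vessel genes. Of 22 measured, 16 rose and 1 fell (median 0.45), beside 24.1% rises and 14.6% falls over all genes. Fn1, the matrix glycoprotein fibronectin, had 10.20 and 10.32 in MPTP-exposed cortex, against 8.63 and 8.42 in naive cortex (adjusted p = 9.84e-07), although its other, dim probe set gave -0.03. Slc6a13, a GABA and taurine transporter of the leptomeninges, was higher by 1.58 log2 units, Aldh1a2, a retinoic acid synthesising enzyme of the meninges, by 1.58 and Fmod, the collagen-binding proteoglycan fibromodulin, by 1.07. Slc6a20a, an amino acid transporter found in meninges and choroid plexus, had 9.34 and 9.75, against 7.58 and 7.71 in naive cortex (adjusted p = 2.4e-06). In the TgS caudate-putamen the list ran the other way, with 14 falls and no rise (1 rise at an unadjusted p under 0.05, median -0.51), and for 17 of the 22 genes the cortical response was the higher of the 2 by the test of the difference. Over all genes, 1.99% fell in the caudate-putamen, and for 11.3% the cortical response was the higher. The amount of membrane that stayed on the tissue at dissection was not measured, and its part in these values was not tested.

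Markers of olfactory bulb neurons rose in TgS cortex, with a wide spread between the naive arrays. Of 14 measured genes, 8 rose and none fell (none at an unadjusted p under 0.05 either), with a median of 1.05, against -0.20 in FVB/N cortex, -0.31 in TgR cortex and -0.19 in TgS caudate-putamen. By the test of the difference, 0 of the 14 differed from FVB/N cortex, 0 from TgR cortex and 1 from the mean of both. At an unadjusted p under 0.05 these were 10, 11 and 11, all higher in TgS cortex. Of all 22626 probe sets, 3565, 2661 and 3474 had an unadjusted p under 0.05 in these comparisons, in either direction. In the TgS response itself, 24.1% of all genes rose and 14.6% fell. Cdhr1, a cadherin of mitral and tufted cells, had 9.76 and 10.25 in MPTP-exposed cortex, against 8.08 and 6.45 in naive cortex, 6.68-fold higher on average (adjusted p = 0.00443). Across the other prefrontal arrays it ranged widely within groups as well, with 9.51 and 6.98 in MPTP-exposed and 9.07 and 8.82 in naive FVB/N cortex. Doc2g, a C2-domain protein of the same cells, rose by 2.13 and Nmb, the peptide neuromedin B, by 1.16 log2 units. Reln, the secreted guidance protein reelin, which cortical interneurons also make, rose by 0.63 log2 units.

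Th, the rate-limiting enzyme of catecholamine synthesis, is made in dopamine neurons of the midbrain and in periglomerular cells of the olfactory bulb. It had 8.95 and 9.19 in MPTP-exposed cortex, against 7.49 and 6.68 in naive cortex, 3.96-fold higher (adjusted p = 0.00422). In FVB/N cortex Th had 8.64 and 6.94 after MPTP, against 8.13 and 7.87 in naive mice, and in TgR cortex 7.87 and 9.36 after MPTP, against 8.34 and 9.53 in naive mice. Th and Cdhr1 were high in the same arrays, so a rise of Th here came together with the bulb markers, and how much bulb tissue each array held was not tested. Zic1, a transcription factor listed for thalamus and also present in bulb and meninges, had 8.83 and 9.12, against 7.18 and 6.87 in naive cortex. Calb2, the calcium buffer calretinin, was higher by 1.51 and Dlx2, a transcription factor of GABAergic neurons, by 1.09 log2 units. These genes also hang on the choice of naive arrays: in the left-out naive replicates 1 and 2, Cdhr1 had 11.02 and 10.72 and Th 9.93 and 9.57, above both MPTP arrays. Without naive replicate 4, Cdhr1 (1.93), Th (1.58), Doc2g (1.55) and Calb2 (1.18) were no longer called, and without MPTP replicate 2 Doc2g (1.89) and Calb2 (1.33) were not.

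Other dopamine genes moved both ways. Of 24 dopamine and monoamine genes, 4 rose and 4 fell, beside 24.1% rises and 14.6% falls over all genes, with a median of 0.05 that changed sign with equal medians (-0.06). Besides Th, Gch1, which makes the tetrahydrobiopterin cofactor of Th, rose by 0.55 log2 units, and Sncb, the synaptic protein beta-synuclein, by 0.55. Pts, the next enzyme of cofactor synthesis, had 8.56 and 8.67 in MPTP-exposed cortex, against 9.20 and 9.21 in naive cortex, and fell by 0.59 (adjusted p = 8.42e-05). Slc6a2, the noradrenaline transporter, fell by 0.35 log2 units at a low signal of 5.66 and 5.63, against 6.02 and 5.96 in naive cortex.

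Of 27 cholinergic genes 9 rose and 2 fell, beside 24.1% rises and 14.6% falls over all genes. Under equal medians the list had 6 rises and 5 falls. Ache, measured by a probe set of the mouse gene that was not used to judge the human transgene, had 9.40 and 9.13 in MPTP-exposed cortex, against 8.73 and 8.80 in naive cortex, 1.41-fold higher (adjusted p = 0.00336). Without MPTP replicate 1 the Ache difference was 0.37 and no longer called. The Ache difference was 0.50 in TgR cortex and 0.23, not called, in FVB/N cortex, and its difference between strains was not called (adjusted p = 0.689 for TgS minus the mean of both). In TgS caudate-putamen Ache was lower after MPTP, by -0.66 (adjusted p = 0.00473), and the regional difference passed the test (adjusted p = 0.000357). Bche, butyrylcholinesterase, had 5.22 and 5.48, against 5.40 and 5.40 in naive cortex, with no call (adjusted p = 0.677). Chka and Chkb, the choline kinases, rose by 0.73 and 0.55 log2 units, and Chrnb1, a muscle-type nicotinic receptor subunit, rose by 0.48 at low signal. Colq, the collagen tail that anchors acetylcholinesterase at the muscle endplate, fell by 0.30.

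**Figure D2:**
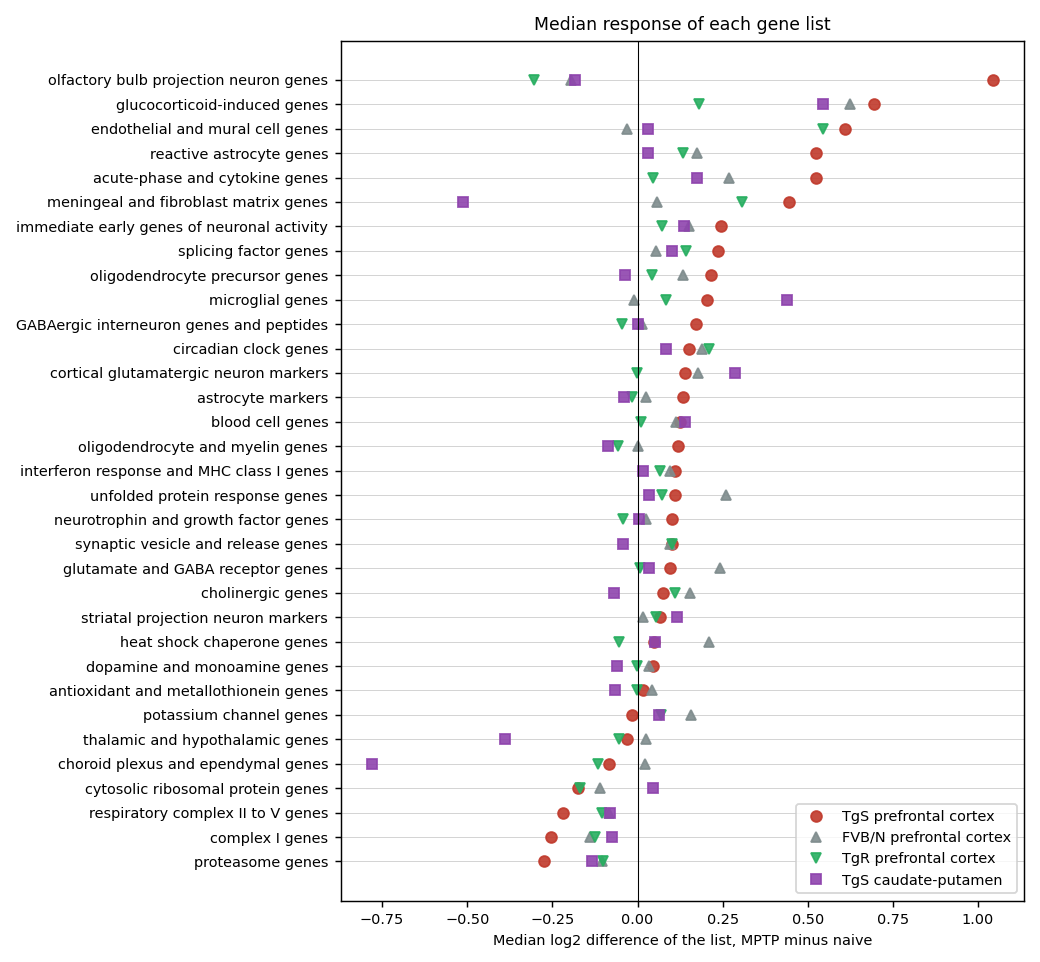
Median log2 difference, MPTP minus naive (x axis), of 33 gene lists (rows) in TgS, FVB/N and TgR prefrontal cortex and in TgS caudate-putamen. The olfactory bulb list stands at 1.05 in TgS prefrontal cortex and below 0 in the other 3 responses, and the meningeal list stands at 0.45 in TgS prefrontal cortex and at -0.51 in TgS caudate-putamen.

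Immediate early genes, which neurons and vessels switch on soon after stimulation, held more rises than falls, as did all measured genes. Of 40 immediate early genes, 12 rose and 2 fell (median 0.25), beside 24.1% rises and 14.6% falls over all genes. Klf4, a zinc-finger factor that endothelium also expresses, had 7.60 and 7.53 in MPTP-exposed cortex, against 5.80 and 5.44 in naive cortex, 3.85-fold higher (adjusted p = 1.79e-06). Klf2, its endothelial relative, rose by 1.66, Fosb, an AP-1 subunit, by 1.32 and Nptx2, a secreted pentraxin that clusters AMPA receptors, by 1.20 log2 units. Atf3, a stress-induced factor, had 6.32 and 6.35, against 5.21 and 5.50 in naive cortex (adjusted p = 3.03e-05). Here too the left-out naive arrays were high, with 7.92 and 7.33 for Klf4 and 9.31 and 9.09 for Fosb.

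Most glucocorticoid-induced genes rose. Of 24 measured, 18 rose and none fell (none at an unadjusted p under 0.05 either), with a median of 0.70. Fkbp5, a co-chaperone induced through the glucocorticoid receptor, had 10.58 and 10.63 in MPTP-exposed cortex, against 9.73 and 9.58 in naive cortex (adjusted p = 9.27e-05). Plekhf1, an endosomal adaptor, was higher by 0.52 log2 units. In FVB/N cortex 19 of 24 rose (median 0.63), in TgS caudate-putamen 13 (median 0.55) and in TgR cortex 3 (median 0.18). Over all genes, 24.1% rose in TgS cortex, 10.3% in FVB/N cortex, 2.26% in TgS caudate-putamen and 15.1% in TgR cortex. The response of TgS cortex differed from the mean of the other strains for none of the 24 (limma), and for 8 at an unadjusted p under 0.05. Taken singly, 2 members had a higher response in TgS than in TgR cortex (13 at an unadjusted p under 0.05), beside 0.186% of all probe sets. Of all 22626 probe sets, 3474 differed from both and 2661 from TgR at an unadjusted p under 0.05, in either direction.

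Clock genes included 3 whose response differed from the mean of both other strains, beside 0.815% of all genes. Dbp, a PAR-bZIP activator whose daily peak is driven by the clock, had 10.49 and 10.39 in MPTP-exposed cortex, against 11.31 and 11.49 in naive cortex, 1.95-fold lower (adjusted p = 2.11e-06). Nfil3, the repressor that cycles in antiphase to Dbp, had 7.13 and 6.89, against 5.94 and 5.90 in naive cortex, 2.13-fold higher (adjusted p = 5.24e-06). Arntl, which encodes the core activator BMAL1, had 9.71 and 9.67, against 9.07 and 9.15 in naive cortex (adjusted p = 1.41e-05). For Dbp the TgS MPTP arrays stood apart: in the other strains it lay between 11.03 and 11.57 after MPTP and between 11.20 and 11.45 in naive cortex. TgS minus the mean of both other responses was -0.95 for Dbp (adjusted p = 0.000913), 1.10 for Nfil3 (0.00163) and 0.45 for Arntl (0.022). Against single strains, the Arntl difference was called for FVB/N (adjusted p = 0.0201) and not for TgR (adjusted p = 0.101). Nr1d1, the nuclear receptor REV-ERB alpha that represses Arntl, was higher by 0.96 log2 units, and by 0.83 and 1.00 in FVB/N and TgR cortex. Of all 21 clock genes 10 rose and 3 fell, beside 24.1% rises and 14.6% falls over all genes. The labels used here do not give the hour at which each mouse was killed, and its part in these values was not tested. The left-out TgS naive arrays had Nfil3 at 7.43 and 7.35 and Dbp at 10.94 and 10.86, nearer to the MPTP arrays than naive replicates 3 and 4 were.

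**Figure D3:**
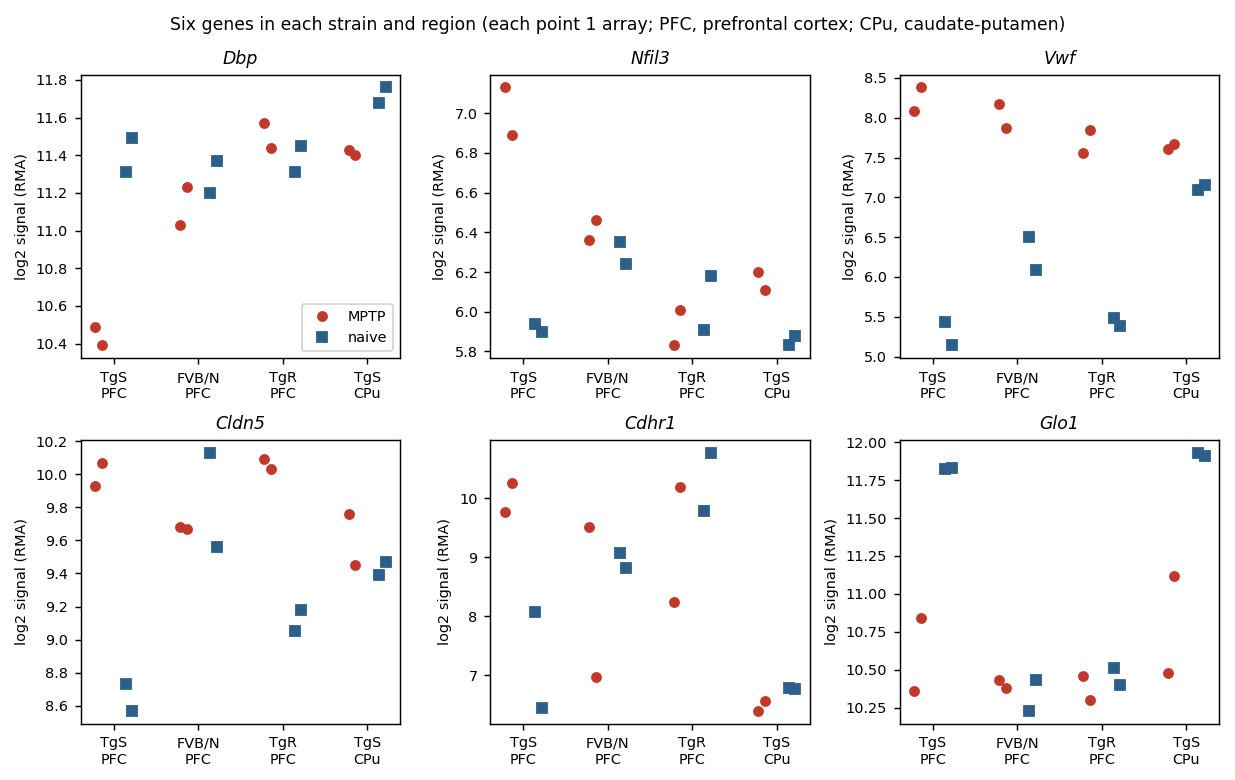
Log2 signal (y axis, RMA) of 6 genes in TgS, FVB/N and TgR prefrontal cortex and TgS caudate-putamen, each point 1 array, MPTP as circles on the left and naive as squares on the right of each pair. Dbp is lowest in the 2 TgS prefrontal MPTP arrays (10.49 and 10.39), and Glo1 is near 12 only in the 4 naive TgS arrays of both regions.

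Genes of the respiratory chain fell by small amounts and in large numbers. Of 33 complex I genes 25 fell and none rose (none at an unadjusted p under 0.05 either), with a median of -0.26, beside 14.6% falls over all genes. The mean log2 signal of the list was 11.47 and 11.29 in MPTP replicates 1 and 2, against 11.62 and 11.64 in naive cortex. Ndufa2, an accessory subunit, had 10.75 and 10.44 in MPTP-exposed cortex, against 11.14 and 11.10 in naive cortex (-0.53, adjusted p = 0.000412). Ndufc2 fell by 0.38 and Ndufb2 by 0.37 log2 units. Of 37 genes of complexes II to V 19 fell and 1 rose (median -0.22), among them Cycs, the electron carrier cytochrome c, by -0.52, Atp5l, a subunit of ATP synthase, by -0.48 and Cox6c, a subunit of complex IV, by -0.33. In FVB/N and TgR cortex the complex I medians were -0.14 and -0.13, with 2 and 3 falls, beside 6.57% and 7.18% falls over all genes. No complex I gene differed between TgS cortex and the mean of both (limma, 4 at an unadjusted p under 0.05), beside 0.815% of all genes. The TgS caudate-putamen, which has a dense dopamine input, had a complex I median of -0.08 and no call (2 at an unadjusted p under 0.05), beside 1.99% falls over all genes.

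Transcripts of proteasome and ribosomal protein genes moved in the same direction. Of 33 proteasome genes 22 fell and 3 rose (median -0.28), beside 14.6% falls and 24.1% rises over all genes. Psma7, a subunit of the 20S core, had 10.39 and 10.22 in MPTP-exposed cortex, against 10.94 and 10.90 in naive cortex, and Psma6, another core subunit, fell by 0.54 log2 units. Psmd11, a subunit of the 19S lid, had 11.24 and 11.42, against 10.21 and 10.36 in naive cortex (adjusted p = 1.37e-06) in the brightest of its 6 probe sets, but 2 of the others fell by 0.31 and 0.38 and 3 were not called (-0.20 to 0.01). Psme3, the nuclear activator PA28 gamma, was higher by 0.83 log2 units in its brightest probe set, while another gave 0.25, not called, and the dimmest fell by 0.53. Of 27 cytosolic ribosomal protein genes 12 fell and none rose (none at an unadjusted p under 0.05 either, median -0.18), including Rps20 by -0.53 and Rpl37 by -0.62. The mean log2 signal of the ribosomal list was 11.54 and 11.35 in MPTP replicates 1 and 2, against 11.64 and 11.62 in naive cortex. That of the proteasome list was 10.68 and 10.60, against 10.85 and 10.84. The ribosomal medians were -0.11 in FVB/N and -0.17 in TgR cortex, and the proteasome medians -0.105 and -0.10. Under equal medians and quantile normalisation the complex I, complex II to V, proteasome and ribosomal lists kept medians below 0, from -0.18 to -0.38.

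Of 44 splicing factors measured, 21 rose and 7 fell, with a median of 0.24, beside 24.1% rises and 14.6% falls over all genes. Under equal medians the splicing counts were 17 and 11, with a median of 0.13. Ptbp1, the repressor of neuronal exons that is mainly expressed outside neurons, had 10.21 and 9.99 in MPTP-exposed cortex, against 9.23 and 9.17 in naive cortex (adjusted p = 5.01e-06). Its other, dimmer probe set gave -0.05 (adjusted p = 0.685). Srsf6, an SR protein, rose by 0.72 and Prpf8, the core scaffold of the U5 particle, by 0.48 log2 units. The other Srsf6 probe sets gave 0.275 and -0.14, not called.

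**Figure D4:**
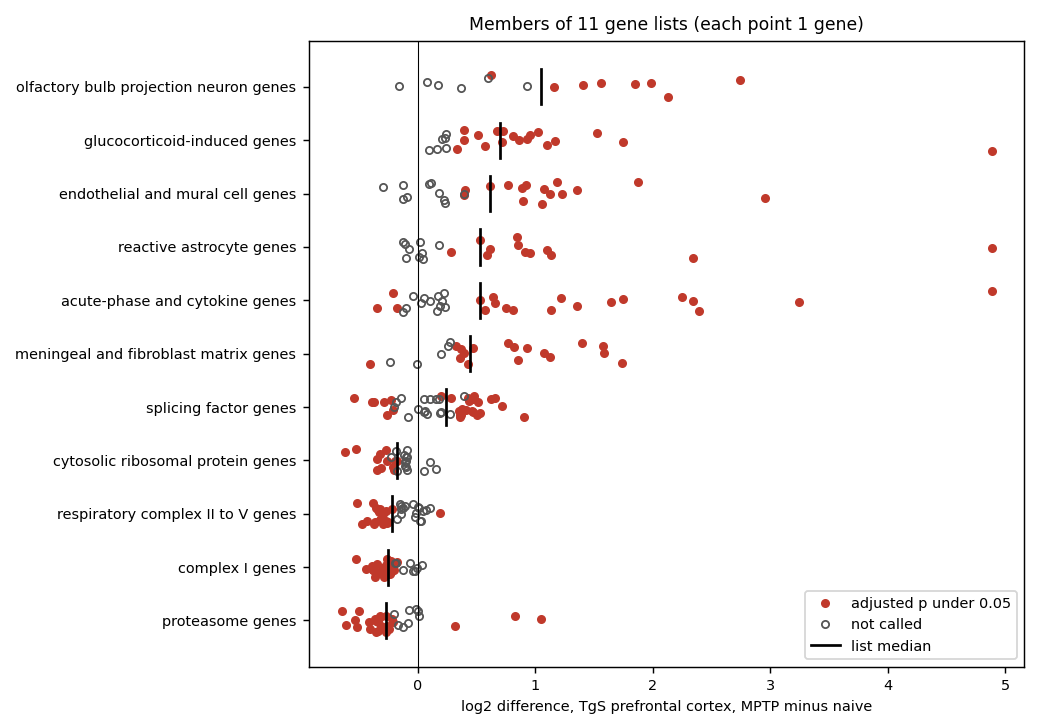
Log2 difference in TgS prefrontal cortex, MPTP minus naive (x axis), of each measured member of 11 gene lists (rows), with called genes filled, other genes open and the list median as a bar. The complex I, ribosomal and proteasome members lie close together just below 0 (medians -0.26, -0.18 and -0.28), whereas the members of the olfactory bulb list spread up to 2.74.

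Stress lists were mixed, and their counts stand beside 24.1% rises and 14.6% falls over all genes. Of 32 heat shock genes 9 rose and 5 fell. Bag3, a co-chaperone of selective autophagy, had 7.66 in both MPTP arrays, against 7.02 and 6.98 in naive cortex, and its partner Hspb8 rose by 0.69 log2 units. The chaperonin subunits Cct2 and Cct3 fell by 0.32 and 0.26. Of 26 unfolded protein response genes 7 rose and 1 fell, and Calr, the endoplasmic reticulum chaperone calreticulin, had 12.49 and 12.50, against 11.89 and 11.90 in naive cortex, with all 3 probe sets higher by 0.53 to 0.60. Of 32 antioxidant genes 9 rose and 6 fell. Mt3, the brain metallothionein, had 12.96 and 12.75, against 11.84 and 11.86 in naive cortex (adjusted p = 8.69e-07). Sod3, extracellular superoxide dismutase, rose by 0.87 and Gpx3, a secreted glutathione peroxidase, by 0.83, while Gsta4, a glutathione transferase for lipid peroxidation products, fell by 0.38 log2 units.

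Interferon-response genes split by member. Of 27 measured, 10 rose and 4 fell, beside 24.1% rises and 14.6% falls over all genes. Ifitm3, a membrane protein that blocks viral entry and is also abundant in endothelium, had 9.89 and 9.93 in MPTP-exposed cortex, against 8.56 and 8.37 in naive cortex (adjusted p = 7.89e-06). Ifitm2 rose by 1.43 and H2-K1, an MHC class I heavy chain, by 0.67 log2 units, while 1 other H2-K1 probe set fell by 0.32. Ifit3, a cytosolic antiviral protein induced by type I interferon, had 6.45 and 6.54, against 7.23 and 7.25 in naive cortex, and fell by 0.75 (adjusted p = 4.57e-06). In TgS caudate-putamen Ifit3 fell by 0.97 log2 units, while the decreases of 0.25 and 0.14 in FVB/N and TgR cortex were smaller by the test of the difference (adjusted p = 0.0421 and 0.0198).

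Neuronal lists held both rises and falls. The counts of this paragraph stand beside 24.1% rises and 14.6% falls over all genes. Among 18 cortical glutamatergic markers 2 rose, Cux1 of the upper layers by 0.39 and Neurod2 by 0.41, and 2 fell. Tbr1, a factor of deep-layer neurons, had 9.51 and 9.73 in MPTP-exposed cortex, against 10.13 and 10.38 in naive cortex, and Neurod6 had 9.57 and 9.82, against 10.75 and 10.62, only just called (adjusted p = 0.049987). Neurod6 lost its call whichever of the 4 arrays was left out (-1.12 to -0.87), and Tbr1 without MPTP replicate 1 (-0.53) or naive replicate 4 (-0.51). Of 20 GABAergic genes 6 rose and 3 fell: Slc32a1, the vesicular GABA transporter, rose by 0.71 in its brighter probe set and fell by 0.35 in the other, and Pvalb, the calcium buffer of fast-spiking cells, had 10.70 and 10.27, against 11.04 and 11.07 in naive cortex (adjusted p = 0.0032), although the Pvalb fall was not called without MPTP replicate 2 (-0.36). Of 20 glutamate and GABA receptor genes 6 rose and 3 fell, with Gria1, an AMPA receptor subunit, up by 0.59, Grin2c, an NMDA receptor subunit, by 0.81 and Gabrd, an extrasynaptic GABA-A subunit, by 0.51. Of 28 synaptic genes 7 rose and 1 fell. Shank3, a postsynaptic scaffold, had 11.38 and 11, against 10.43 and 10.44, and Syn1 and Dnm1, of synaptic vesicle release and recycling, rose by 0.45 and 0.40 log2 units. Kcnip2, a Kv4 channel partner, was higher by 0.92 among 28 potassium channel genes, of which 4 rose and 3 fell. The other, dimmer Kcnip2 probe set gave 0.065, not called. Pdgfb, the growth factor that recruits pericytes, rose by 0.82 among 26 growth factor genes, of which 9 rose and 3 fell.

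The medians of the receptor (0.10), synaptic (0.10), growth factor (0.10), heat shock (0.05), cholinergic (0.08), antioxidant (0.02) and striatal (0.07) lists changed sign under equal medians, so no direction is stated for them.

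Calls in the remaining cell type lists stand beside 24.1% rises and 14.6% falls over all genes. Of 18 myelin genes 4 rose and none fell (limma, 1 fall at an unadjusted p under 0.05), of 6 oligodendrocyte precursor genes 2 rose and none fell (0 at an unadjusted p under 0.05), of 14 choroid plexus genes 1 rose and 2 fell, of 17 thalamic and hypothalamic genes 2 rose and 1 fell, and of 15 striatal markers 5 rose and 1 fell.

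The largest falls were smaller than the largest rises and many lay at low signal. B3galt2, a galactosyltransferase, had 5.84 and 6.05 in MPTP-exposed cortex, against 7.62 and 7.51 in naive cortex, 3.07-fold lower (adjusted p = 1.36e-05). Tnnc1, the slow and cardiac troponin C, had 8.73 and 8.45, against 10.11 and 10.13 in naive cortex, 2.89-fold lower (adjusted p = 4.7e-06). Rab27b, a small GTPase of vesicle secretion, fell by 0.99 with both probe sets lower. Bpifb1 fell by 1.57 in a probe set whose name marks possible cross-hybridisation, while its other probe set gave -0.07 at a dim signal. Trbv1 (-1.25), a T cell receptor gene segment, H1f8 (-1.38), the oocyte linker histone, Gngt1 (-1.27), a rod transducin subunit, and Zfy2 (-1.13), a Y-linked zinc-finger gene, are genes of other tissues, and their MPTP signals lay between 3.73 and 6.20. Another Gngt1 probe set fell by 0.73, and its remaining probe sets gave -0.015 and 0.07, not called. Fam227b and Lrrc6, a ciliary assembly factor, fell by 1.11 and 1.02 log2 units, also from low signals.

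Glo1, the glyoxalase that clears methylglyoxal, was high in naive TgS mice. It had 10.36 and 10.84 in MPTP-exposed cortex, against 11.82 and 11.83 in naive cortex, 2.34-fold lower (adjusted p = 5.2e-05), and its 3 probe sets fell by 1.05 to 1.71 log2 units. In TgS caudate-putamen Glo1 had 10.48 and 11.12 after MPTP, against 11.93 and 11.91 in naive mice. In FVB/N and TgR cortex all 8 arrays lay between 10.23 and 10.51, so the naive TgS level was the one that stood out, and replicate 2 of the TgS MPTP arrays was intermediate in both regions. The left-out TgS naive replicates had 11.03 and 11.27. The gene's copy number is known to vary between laboratory mouse lines, and the genotype of these mice at Glo1 was not measured. Among 9 measured genes within 600 kb of Glo1, 2 fell in TgS cortex (Tff2 by 0.43 and Glp1r by 0.34), Zfand3 rose by 0.28 and 6 were not called. The nearest, 1700097N02Rik, gave -0.22 in TgS cortex and -0.20 in TgS caudate-putamen, neither called.

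The response of TgS cortex overlapped with that of the other strains. Of the 4837 probe sets that rose in TgS cortex, 1853 also rose in FVB/N cortex, where 11.4% of all probe sets rose, which is 38.3% of the TgS list and 71.8% of the FVB/N list. With TgR cortex the overlap was 2466 (13.9% rose there), or 51.0% of the TgS list and 78.7% of the TgR list. The responses of the strains share no arrays, but their naive and MPTP arrays are split by the same spelling of the region. The TgS caudate-putamen shared 214 rises (4.42% of the cortical list and 54.7% of its own) and 97 falls (2.72% and 20.9%), and 114 of the probe sets that rose in the cortex fell there. In that region 1.73% of all probe sets rose and 2.05% fell.

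Few responses differed between strains by the test of the difference. Against FVB/N, 146 probe sets (0.645%) differed, 107 (0.473%) with the higher response in TgS cortex. Against TgR, 54 (0.239%) differed, 42 of them upward (0.186%), and against the mean of both 157 (0.694%), 117 upward (0.517%). Klf4 was in all 3 sets: it rose by 1.95 log2 units in TgS cortex, against 0.25 in FVB/N and 0.53 in TgR cortex. The Klf4 difference from TgR lost its call in 5 of 8 leave-outs of an array (1.24 to 1.60). Lcn2 rose by 4.89 log2 units in TgS cortex, against 4.90 in FVB/N and 1.43 in TgR cortex, and the difference from TgR passed the test (3.46, adjusted p = 0.00651), though not without TgR naive replicate 4. Osmr rose by 2.34 in TgS cortex, against 1.67 in FVB/N and 0.76 in TgR cortex, and again the difference from TgR passed (adjusted p = 0.00593). Nnat, a small membrane protein of neural development, and Doc2b, a calcium sensor of vesicle release, rose by 1.76 and 1.33 in TgS cortex, against 0.14 and -0.11 in TgR cortex.

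Some of these differences lay in the response of the other strains. Fabp7, the brain fatty acid-binding protein of radial glia and bulb astrocytes, was not called in TgS cortex (10.53 and 10.67 after MPTP, against 10.13 and 10.11 in naive mice) but was lower after MPTP in FVB/N cortex by -1.43 and in TgR cortex by -1.08. Cxcl12, a chemokine of vessels and meninges, rose by 1.07 in TgS and 0.93 in TgR cortex, against -0.60, not called, in FVB/N cortex. These values are of 1 probe set. The other, of similar brightness in TgS cortex, gave 0.14 there, not called (adjusted p = 0.415). On the side of lower responses, Gngt1, H1f8 and Dbp differed from both strains one by one, Rab3c, a synaptic vesicle GTPase, from FVB/N (-0.86, adjusted p = 0.0209) and Cox6a2, a muscle-type complex IV subunit that parvalbumin neurons also express, from both (-0.51 and -0.58). Of the 44 named differences between responses, 22 lost their call in at least 1 leave-out of an array. Those of Zic1 (1.54 to 1.96), Nmb (1.13 to 1.69) and Trbv1 (-0.91 to -0.69) against the mean of both did so in 8 of 12. H1f8 lost its call in 4 of 8 against each strain, and Gngt1 in 1 of 8 against TgR. Rab3c against FVB/N and Cox6a2 against TgR lost theirs in 5 of 8.

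The cortical and striatal responses of TgS mice differed for 4204 probe sets (18.6%), 2500 (11% of the tested) with the higher response in the cortex. Prg4, the lubricating proteoglycan, had 7.01 and 7.61 in MPTP-exposed cortex, against 5.77 and 5.59 in naive cortex, and was lower after MPTP in the caudate-putamen (-0.99). Avp, the hypothalamic peptide vasopressin, was called in the caudate-putamen, where it had 6.79 and 6.72 after MPTP, against 10.15 and 10.43 in naive mice, and not in the cortex (-0.24). Neurod6 and Tbr1 fell in the cortex and were higher after MPTP in the caudate-putamen, Neurod6 with 7.39 and 7.49 there, against 5.13 and 5.61 in naive mice. Myl4, a myosin light chain, and Rspo2, a Wnt agonist of cortical neurons, had the same opposed directions (-0.98 and -0.52 in the cortex, 1.48 and 1.13 in the caudate-putamen). In the caudate-putamen the cortical marker list had 6 rises and no fall (2 falls at an unadjusted p under 0.05). The thalamic and hypothalamic list had 5 falls and no rise there (0 at an unadjusted p under 0.05), beside 2.26% rises and 1.99% falls over all genes. The part of dissection in these regional differences was not tested. In the cortex the Rspo2 call was lost whichever of the 4 arrays was left out (-0.59 to -0.44). The regional difference of Cdhr1 lost its call in 7 of 8 leave-outs, with values of 2.22 to 3.85.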

How the data were processed

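The authors' deposited table holds log2 signals of 22690 probe sets on 29 arrays. Per the submitters' processing notes, RMA, Affymetrix Expression Console and Affymetrix Power Tools were used, with no role or version named. RMA corrects background, quantile normalises and summarises probes, and whether 1 run covered every array is not stated. No detection calls were used, so the number of arrays limits the precision and the background level is unknown.

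The 64 control probe sets were left out, and 22626 were tested, 20380 of them with 1 symbol, 691 with several and 1555 with none. A mean for each of 12 groups was fitted to 23 arrays with limma 3.58.1 in R 4.3.3 (11 residual degrees of freedom, default eBayes, two-sided). The 6 naive prefrontal replicates numbered 1 or 2 were left out in all strains. Adjusted p (Benjamini-Hochberg) was taken over all probe sets of a comparison, and values under 0.05 were called. Errors given with ± are standard errors from this fit, and a difference is MPTP minus naive. A gene was represented by the probe set with the highest mean. The fit was tested on simulated data. 1 naive FVB/N caudate-putamen array, which bears only on the shared spread, has a description that calls it exposed, against its title.

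The alternatives were other naive arrays, fewer arrays in the fit, a replicate block, other scalings, filters and variance settings, gene means and leaving out each array.

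Named genes were the 14 largest rises and 14 largest falls among called genes whose arrays did not overlap, Ache, Bche, Th and Lcn2, sex-linked check genes, up to 4 genes of each list by smallest p, and up to 6 genes in each direction of each difference between responses. Of the 165 genes this gave, 120 were picked for the text after their values were seen. The neighbours of Glo1 and the printed promoters were chosen after values were seen. The members and lists were chosen with earlier results of these data known.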

Additional observations from a re-analysis of the deposited data

Results flagged for a closer look

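The genes below had a response in TgS prefrontal cortex that differed from the same contrast in another strain or region by a test of the difference (limma, adjusted p under 0.05). Values are the TgS prefrontal difference (MPTP minus naive, log2) minus the other one.

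Against the FVB/N prefrontal response, the difference was 2.01 for Slc6a20a, 1.91 for Fabp7, 1.70 for Klf4, 1.67 for Cxcl12 and 1.52 for Cldn5. It was -1.30 for Gngt1, -1.30 for Glo1, -0.99 for Bpifb1, -0.93 for H1f8, -0.86 for Rab3c and -0.81 for Dbp. Against the TgR prefrontal response, it was 3.46 for Lcn2, 1.62 for Nnat, 1.58 for Osmr, 1.44 for Doc2b and 1.42 for Klf4, and in the lower direction -1.09 for Dbp, -1.04 for Gngt1, -1.03 for H1f8, -0.61 for Ifit3 and -0.58 for Cox6a2.

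Against the mean of both other strains, the higher responses were 1.75 for Zic1, 1.73 for Fabp7, 1.59 for Slc6a20a, 1.56 for Klf4, 1.41 for Nmb, 1.41 for Nnat, 1.20 for Atf3, 1.19 for Flt1, 1.13 for Osmr, 1.11 for Doc2b, 1.10 for Nfil3, 1.06 for Aldh1a2, 1.00 for Ifitm3, 0.97 for Pglyrp1, 0.96 for Cldn5, 0.95 for Vwf, 0.92 for Slc6a13, 0.88 for Icam1, 0.83 for Fn1, 0.70 for Gpx3, 0.67 for Pecam1, 0.65 for Nptx2, 0.57 for Tie1 and 0.45 for Arntl. The lower ones were -1.23 for Glo1, -1.17 for Gngt1, -0.98 for H1f8, -0.95 for Dbp, -0.80 for Trbv1, -0.75 for Rab3c, -0.62 for Rab27b, -0.55 for Ifit3 and -0.54 for Cox6a2.

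Against the TgS caudate-putamen response, the difference was 3.30 for Avp, 3.04 for Cdhr1, 2.85 for Aldh1a2, 2.77 for Calb2, 2.62 for Prg4 and 2.51 for Th. In the lower direction it was -3.06 for Neurod6, -2.45 for Myl4, -1.97 for B3galt2, -1.96 for Tbr1, -1.64 for Rspo2 and -1.54 for Bpifb1.

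Xist gave a signal in arrays outside the comparisons: the left-out TgS naive prefrontal replicates 1 and 2 had 10.61 and 9.97, against 6.78 to 7.24 in the 23 arrays of the fit.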

How the results depend on the processing

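The results depended most on which naive arrays were used, and the cause was not tested. TgS naive replicates 1 and 2 have the female pattern of Xist and Eif2s3y and a low dap control, unlike the MPTP arrays. The swap below therefore compares arrays that also differ in these respects. With TgS naive replicates 1 and 2 in place of 3 and 4, 4075 of the 8401 calls kept their direction and their call, 5442 probe sets were lower, and the differences rose to 5378 against FVB/N (2660 higher, 2718 lower), 5524 against TgR (2710, 2814), 6778 against both (3299, 3479) and 7339 against the caudate-putamen (3774, 3565). Of 120 named genes, 63 kept direction and call, 30 lost the call and 27 turned: Cdhr1 -0.87, Doc2g -0.63, Th -0.68, Zic1 -0.74, Klf4 -0.06, Flt1 -0.62, Trbv1 0.28, Cux1 -0.38, Neurod2 -1.07, Slc32a1 -0.16, Reln -0.20, P2ry12 0.45, Tie1 -0.01, Nmb -0.58, Calb2 -0.53, Nptx2 -0.17, Fosb -0.57, Nfil3 -0.38, Bag3 -0.085, Atf3 -0.18, H2-K1 -0.055, Gpx3 -0.11, Pts 0.07, Gria1 -0.085, Fabp7 -1.07, Cxcl12 -0.17 and Doc2b -0.58. Differences between responses turned for Klf4 (-0.31 against FVB/N, -0.59 against TgR, -0.45 against both), Doc2b (-0.47 against TgR), Zic1 (-0.94), Nmb (-0.33) and Trbv1 (0.73) against both, and Cdhr1 (-0.57) and Th (-0.16) against the caudate-putamen. With all 29 arrays and no set term, 3984 were called (2104 higher, 1880 lower), the differences fell to 0 against FVB/N (0 higher, 0 lower), 1 against TgR (1, 0), 0 against both (0, 0) and 129 against the caudate-putamen (58, 71), and Neurod2 (-0.33), Fabp7 (-0.30) and Trbv1 against both (0.0225) turned. With all 29 arrays and a term for the spelling of the region, the differences were 0 (0, 0), 15 (13, 2) and 1 (0, 1), and these genes turned: Zic1 -0.015, Cux1 -0.33, Neurod2 -0.53, Slc32a1 -0.12, P2ry12 0.37, Nmb -0.0317, Fosb -0.27, Bag3 -0.04, H2-K1 -0.0275, Gpx3 -0.11, Fabp7 -0.46 and Doc2b -0.30, and Trbv1 against both (0.0225).

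Scaling and filters had less effect on single genes: none of the 120 turned under equal medians, quantile normalisation, the prefrontal arrays alone, gene means, a variance trend or, among the 105 still tested, the filter on low signal. Equal medians gave 3128 higher and 6476 lower, 22 lower against TgR, and 1558 higher and 3709 lower against the caudate-putamen. A log2 difference of at least 0.5 left 2452 (1730 higher, 722 lower) and 2301 against the caudate-putamen (1553, 748). The mean over a gene's probe sets, with fewer features tested, gave 4953 (2965, 1988), 24 lower against FVB/N, 22 lower against TgR, and 2592 against the caudate-putamen (1643, 949). Without the probe sets under the 25th percentile of mean signal, 21 were lower against FVB/N. With the 12 prefrontal arrays alone the differences were 87 against FVB/N (14 lower), 21 against TgR (16, 5) and 52 against both (39, 13).

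Leaving out 1 array gave 5494 to 6499 calls in the response (3287 to 3884 higher, 2207 to 2615 lower), and 5357 to 6063 of the 8401 kept their direction and call. The lowest count came without TgS naive replicate 3 and the highest without TgS MPTP replicate 2. It gave 31 to 355 against FVB/N (23 to 218 higher, 7 to 137 lower), lowest without FVB/N naive replicate 3 and highest without FVB/N naive replicate 4. Against TgR it gave 4 to 122 (2 to 102, 2 to 23), lowest without TgR naive replicate 4, and highest without TgR MPTP replicate 2. Against both it gave 32 to 373 (19 to 245, 9 to 128), and against the caudate-putamen 2092 to 4788 (1303 to 2964, 789 to 1824), lowest without TgS caudate-putamen MPTP replicate 2. Bche, which was not called, turned to 0.08 without TgS MPTP replicate 1.

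The MPTP arrays numbered 1 and 2 and the naive arrays numbered 3 and 4 share no number, so the response has no pairs. Same-numbered arrays of different strains had residual correlations of -0.359 to -0.052. With the replicate block the counts were 8018 in the response (4631 higher, 3387 lower), 106 against FVB/N, 45 against TgR, 108 against both and 3803 against the caudate-putamen.

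Each prefrontal group in the fit has 2 arrays, the labels do not give the number of mice per array, and the spread is shared over 12 groups. Differences at low signal are compressed in RMA values, and signal over background is unknown.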
